A study of Mus musculus with 12 samples.

Results

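The 8 genes described here code for receptors on the surface of myeloid cells: Cd300a, Cd300lb, Cd300ld and Cd300lf of the CD300 family, the paired immunoglobulin-like receptor gene Pirb, the leukocyte immunoglobulin-like receptor gene Lilrb4a, Trem1 and the sialic acid-binding lectin gene Siglece. They were chosen by name, with the levels in these same libraries already known, and were matched by mouse gene symbol to 8 of the 54532 Ensembl genes of the table. Because levels in all groups were known when they were chosen, every difference between groups below is a description of these genes, and no p-value is given for them. The study cultured marrow cells of WT mice with CMG, a source of M-CSF, to give macrophages, and added RANKL (100 ng/mL in the sample labels) to give osteoclasts, the multinucleated cells that resorb bone. On day 5 cells of both kinds were left without LPS, a bacterial cell-wall component sensed by TLR4, or given LPS at 100 ng/mL for 3 h. Each of the 4 groups (macrophages without LPS, macrophages with LPS, osteoclasts without LPS, osteoclasts with LPS) had 3 RNA-seq libraries, 12 in all. All 4 groups share the WT genotype and M-CSF. Strain, age and sex are not stated, and nothing in the labels says that libraries came from separate mice or cultures, so errors measure only the spread between these libraries, which may be technical.

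Myeloid cells carry pairs of related receptors with opposite effects. Inhibitory members such as CD300a, CD300lf, PIR-B, the product of Lilrb4a and Siglec-E hold immunoreceptor tyrosine-based inhibitory motifs in their cytoplasmic tails, which recruit the phosphatases SHP-1, SHP-2 or SHIP1 (Ptpn6, Ptpn11, Inpp5d). Activating members such as CD300lb, CD300ld and TREM1 have short tails and signal through the adaptors DAP12 (Tyrobp) or the Fc receptor gamma chain (Fcer1g) to the kinase Syk. The same adaptors carry the costimulatory signals that osteoclast formation needs beside RANKL.

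In the GENCODE M21 annotation of mm10, Cd300a (ENSMUSG00000034652, chromosome 11, 114890041 to 114904654, plus strand), Cd300lb (ENSMUSG00000063193, 114922781 to 114934386, minus), Cd300ld (ENSMUSG00000034641, 114982274 to 114989922, minus) and Cd300lf (ENSMUSG00000047798, 115116214 to 115133992, minus) lie in 1 gene cluster. Pirb (ENSMUSG00000058818, 3711409 to 3720391, minus) and Siglece (ENSMUSG00000030474, 43651070 to 43660161, minus) are on chromosome 7, Lilrb4a (ENSMUSG00000112148, 51490956 to 51496611, plus) on chromosome 10 and Trem1 (ENSMUSG00000042265, 48232768 to 48246924, plus) on chromosome 17. All 8 are annotated as protein coding, and their values are sums over exons. Some of these genes share sequence with relatives. Of the words of 50 bases in Lilrb4a transcripts, 46.7% also occur in other genes, mainly the read-through gene Gm49339 (33.7%) and its neighbour Lilr4b (26.1%), and its exons overlap Gm49339 and, on the other strand, Gm40645. For Pirb the share was 34.0%, mainly with Gm14548 (17.7%), Pira2 (16.8%) and Lilra6 (15%). It was 3.89% for Cd300ld, 3.18% for Cd300a, 2.29% for Cd300lf and 0% for Cd300lb, Trem1 and Siglece. How the authors' counting treated reads that match several genes is not given in the sources used here, so the levels of Lilrb4a and Pirb are uncertain to that extent.

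RefSeq promoter windows (GRCm38.p6, 250 bases before to 50 bases after the transcription start) were found for 7 of the 8 genes. Each window was searched on both strands for the PU.1 core GAGGAA, the interferon-stimulated response core GAAANNGAA, the AP-1 core TGANTCA and the NF-kB consensus. A PU.1 core was present in 6 of the 7 windows, against 28.3% of the 32851 RefSeq windows of this length. An NF-kB match was present in Cd300a and Cd300ld (8.46% of all windows), where the one in Cd300ld overlaps its PU.1 core. An interferon-response core was present in Cd300lf (8.56%), and an AP-1 core in 0 of the 7 (7.81%). The windows of 3 genes are given 5′ to 3′ on the strand of its gene: Cd300lb (chr11:114934322-114934621, minus strand), Pirb (chr7:3720333-3720632, minus strand) and Siglece (chr7:43660112-43660411, minus strand). Cd300lb and Pirb are shown because LPS moved them farthest in opposite directions in macrophages, and Siglece because its window, like that of Pirb, holds 3 PU.1 cores. Capitals mark PU.1 cores on either strand (GAGGAA or its complement TTCCTC). Counted from the start, they begin at -185, -120 and -87 in Pirb and at -87, -36 and -11 in Siglece. In Cd300lb these letters, and those of the other 3 motifs, are not found in the window. A match is a run of letters, and binding was not measured.
Cd300lb: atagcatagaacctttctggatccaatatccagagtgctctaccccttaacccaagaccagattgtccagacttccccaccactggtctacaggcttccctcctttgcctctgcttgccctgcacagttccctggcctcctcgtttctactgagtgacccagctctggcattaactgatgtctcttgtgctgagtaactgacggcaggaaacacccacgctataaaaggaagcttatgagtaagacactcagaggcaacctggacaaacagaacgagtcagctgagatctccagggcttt
Pirb: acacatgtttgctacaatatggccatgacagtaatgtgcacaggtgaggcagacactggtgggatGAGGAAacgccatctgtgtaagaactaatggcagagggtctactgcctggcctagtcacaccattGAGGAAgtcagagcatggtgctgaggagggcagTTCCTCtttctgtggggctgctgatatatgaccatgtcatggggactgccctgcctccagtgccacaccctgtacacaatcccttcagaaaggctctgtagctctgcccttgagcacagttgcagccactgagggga
Siglece: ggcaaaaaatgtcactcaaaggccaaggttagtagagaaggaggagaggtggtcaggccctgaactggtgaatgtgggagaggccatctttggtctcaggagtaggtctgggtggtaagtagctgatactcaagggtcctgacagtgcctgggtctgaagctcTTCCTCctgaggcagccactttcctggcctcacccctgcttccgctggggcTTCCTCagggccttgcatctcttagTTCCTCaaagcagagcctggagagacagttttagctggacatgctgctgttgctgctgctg

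Levels are FPKM, which are per length of gene and can be compared between genes. The 12 libraries held 15651955 to 20281567 reads assigned to genes. The osteoclast markers (9 genes, among them Ctsk and Acp5) summed to 16.3 to 28.9 FPKM in the macrophage libraries and 29058 to 32044 FPKM in the osteoclast libraries. The macrophage list (8 genes) summed to 2040 to 2511 and 1702 to 1804 FPKM, but its members differed: in osteoclasts without LPS, Mrc1 stood at 0.877% and Adgre1 at 7.74% of its level in macrophages, while Csf1r stood at 70.4% and Cd68 at 209%. The LPS-response list (Tnf, Il1b, Il6, Cxcl10, Ccl5) summed to 55.1 to 59.8 FPKM without and 8609 to 8804 with LPS in macrophages, and to 7.38 to 9.74 without and 314 to 530 with LPS in osteoclasts. Markers of stromal cells summed to 24.8 to 34.6 FPKM in macrophage and 0.0863 to 0.612 in osteoclast libraries. The dendritic cell list (5 genes) summed to 0.215 to 0.293 FPKM in untreated macrophages, 5.62 to 6.31 with LPS (mostly Xcr1), 0.645 to 0.710 in untreated osteoclasts and 1.42 to 1.84 with LPS, and its part in the LPS differences was not tested. Lists for mast cells, B cells and T or NK cells summed to at most 1.14 FPKM in any library. Since each library is a bulk culture, fewer cells of a type and less RNA per cell cannot be told apart.

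All 8 genes were detected, and in untreated cells 7 of them stood lower in osteoclasts than in macrophages while Pirb stood higher. A difference was called when its Benjamini-Hochberg adjusted p was under 0.05 in a limma fit of log2(FPKM + 1) over the 11335 genes that reached 1 FPKM in 3 or more libraries. This scale understates the change of genes with low values. All 8 genes passed that filter, Cd300lf through the 3 libraries of untreated macrophages alone, and Trem1 and Siglece through the 6 macrophage libraries, so their differences from the other groups are partly built into the filter. With LPS in macrophages, 3 of the 8 were called higher and 4 lower, where 36.8% and 33.1% of all genes tested were called. With LPS in osteoclasts, 1 was called higher and 2 lower (11.1% and 6.59% of all genes). In osteoclasts against macrophages without LPS, 1 was called higher and 7 lower (38.8% and 39.0%), and with LPS 0 and 6 (40.9% and 43.0%). The LPS difference in osteoclasts minus that in macrophages was called higher for 3 and lower for 3 (26.6% and 30.0%). These splits depend on the scaling. With TPM, 1 was called higher and 4 lower for LPS in macrophages, and 1 and 3 for LPS in osteoclasts. For the difference between the LPS effects it was 4 and 1. Quantile normalization gave 2 and 4, 0 and 3, and 4 and 2 in the same order. Nothing is read from these counts, because the genes were chosen with these differences known. The median log2 difference over the 8 genes was -0.09 for LPS in macrophages, -0.15 for LPS in osteoclasts, -1.49 and -1.21 for osteoclasts against macrophages without and with LPS, and 0.03 for the difference between the LPS effects. Over all genes tested the same medians were 0.02, 0.01, 0.00, -0.02 and -0.01. With TPM, where the median gene stood at -0.55 for LPS in macrophages, the log2 differences there were -5.34 for Cd300lb, -1.84 for Cd300lf, -1.5 for Cd300a, -0.98 for Cd300ld and 0.56 for Pirb, all called.

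**Figure D1:**
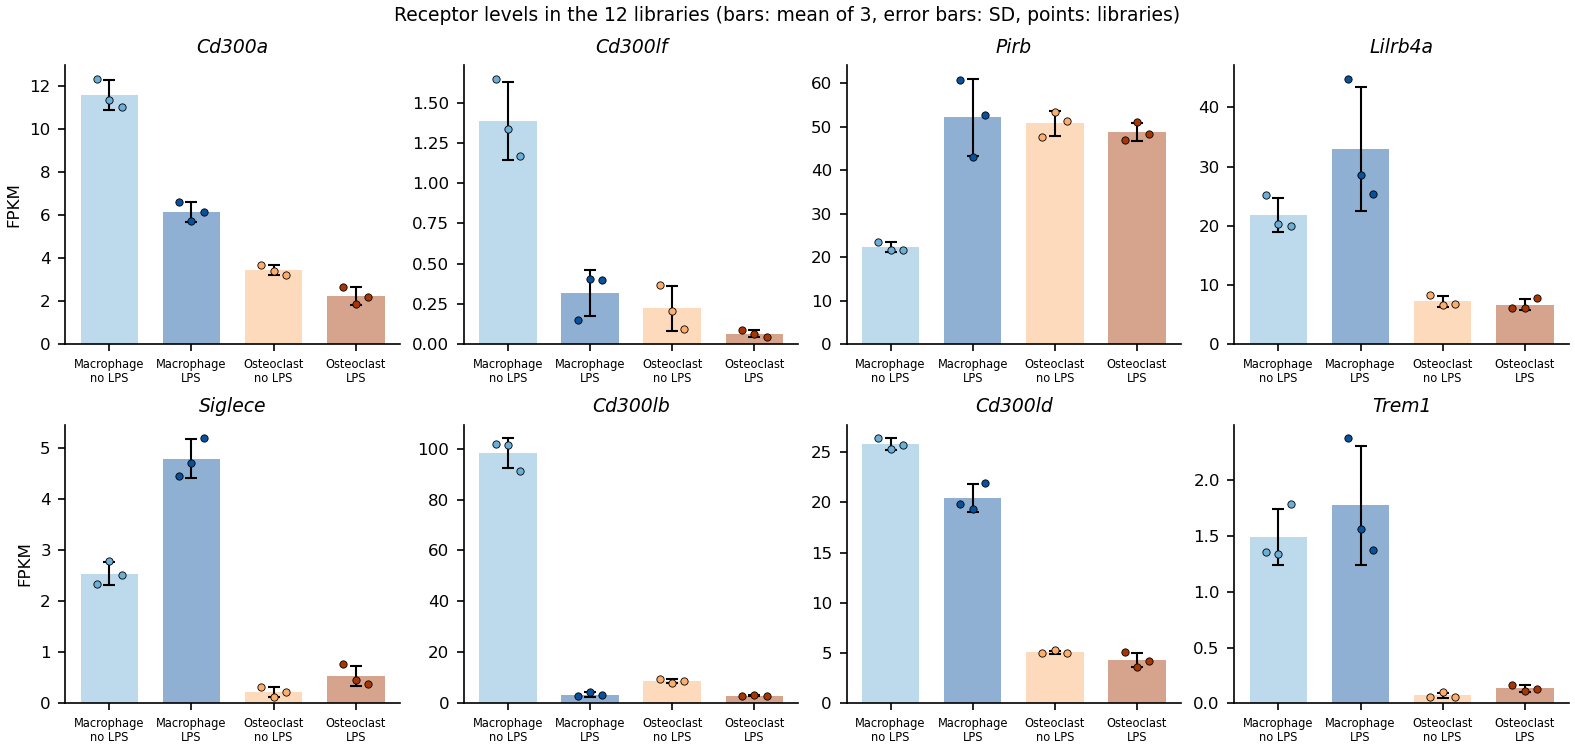
FPKM (linear axes from 0, a different range in each panel) of the 8 receptor genes in the 4 groups; bars are means of 3 libraries, error bars SD and points libraries. Cd300lb stands near 98.2 FPKM in untreated macrophages and under 10 in every other group, and Pirb is the only gene of the 8 that is lowest in untreated macrophages.

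Among the inhibitory receptors, the 2 of the CD300 family were highest in untreated macrophages and lower with LPS and in osteoclasts. Cd300a, which binds phosphatidylserine and phosphatidylethanolamine on dying cells, measured 12.3, 11.3 and 10.99 FPKM in untreated macrophages and 6.60, 5.70 and 6.13 with LPS. In osteoclasts it measured 3.69, 3.40 and 3.22 FPKM without and 2.66, 1.86 and 2.20 with LPS. The 4 groups do not overlap, and the order runs from untreated macrophages down to osteoclasts with LPS. The level with LPS was 1.88-fold lower in macrophages (log2 difference -0.81, SE 0.09, and -1.5 with TPM) and 1.53-fold lower in osteoclasts (-0.46, SE 0.09), and untreated osteoclasts were 3.36-fold below untreated macrophages. In osteoclasts with LPS the second library was lowest for Cd300a, for Cd300ld (3.65 against 5.08 and 4.27 FPKM) and for the macrophage marker Adgre1 (42.5 against 73.1 and 70.9 FPKM). Whether this library's macrophage content bears on the LPS difference of Cd300a in osteoclasts was not tested. Cd300lf, another lipid-binding inhibitory receptor that has been described as a brake on osteoclast formation, was far less abundant. It measured 1.65, 1.34 and 1.17 FPKM in untreated macrophages (197, 162 and 134 reads) and 0.152, 0.403 and 0.401 FPKM with LPS (10, 31 and 29 reads). Osteoclasts gave 0.368, 0.207 and 0.0914 FPKM without LPS and 0.0883, 0.0630 and 0.0426 with LPS, on 4 to 35 reads a library. Untreated macrophages stand apart from the rest, macrophages with LPS overlap untreated osteoclasts, and osteoclasts with LPS lie below both of these. Mean Cd300lf was 4.35-fold lower with LPS in macrophages (log2 difference -0.86, SE 0.11) and 6.24-fold lower in untreated osteoclasts than in untreated macrophages (-0.97). The LPS difference in osteoclasts, from means of 0.222 to 0.0646 FPKM, was not called (-0.19, SE 0.11). With LPS, osteoclasts were 4.93-fold below macrophages (-0.30), a call lost without the second or the third macrophage library with LPS (-0.26 in both fits) or the third osteoclast library with LPS (-0.29).

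Pirb and Lilrb4a, the immunoglobulin-like inhibitory receptors, were both higher with LPS in macrophages but differed in osteoclasts. Pirb, which binds MHC class I, measured 23.6, 21.6 and 21.6 FPKM in untreated macrophages and 60.8, 43.1 and 52.7 with LPS. Osteoclasts gave 47.6, 53.4 and 51.3 FPKM without and 47.0, 51.1 and 48.4 with LPS. Only untreated macrophages stand apart, and the other 3 groups overlap. The mean was 2.35-fold higher with LPS in macrophages (log2 difference 1.18, SE 0.10) and 2.28-fold higher in untreated osteoclasts than in untreated macrophages (1.15). With LPS in osteoclasts the log2 difference was -0.05 (SE 0.10), and osteoclasts against macrophages with LPS differed by -0.08, neither of them called. Without the second library of macrophages with LPS the last of these was -0.21 and was called lower. Lilrb4a codes for gp49B, an inhibitory receptor of macrophages and mast cells. It measured 25.2, 20.3 and 20.0 FPKM in untreated macrophages, 44.9, 28.6 and 25.4 with LPS, 8.29, 6.62 and 6.78 in untreated osteoclasts and 6.16, 6.13 and 7.75 in osteoclasts with LPS. All macrophage libraries lie above all osteoclast libraries, and both osteoclast groups overlap. The LPS ratio in macrophages was 1.51 (log2 difference 0.54, SE 0.18) and rests on the first library with LPS: without it the log2 difference was 0.30 and was not called. The call was also lost without the second (0.49) or the third (0.48) untreated library, and the difference was -0.088 with TPM in place of FPKM. The lowest library with LPS (25.4 FPKM) was barely above the highest without (25.2 FPKM). Untreated osteoclasts were 3.02-fold and osteoclasts with LPS 4.94-fold below the matching macrophages.

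These genes have close relatives that lack the inhibitory tail, and the ratio of each to 1 such relative differed between groups. Of the 11 PIR and LILR symbols listed, 4 matched, so most PIR-A genes were not looked up. The ratio of Pirb to Pira2 is therefore not one of PIR-B to all PIR-A receptors. The ratios that follow were chosen after the values were seen. Pira2, an activating relative of PIR-B that pairs with the Fc receptor gamma chain, measured 0.698, 0.504 and 0.649 FPKM in untreated macrophages and 0.792, 0.406 and 0.534 with LPS. It measured 17.1, 17.9 and 18.0 FPKM in osteoclasts without and 15.2, 16.8 and 15.5 with LPS. Pira2 thus differed between the cell types by 3.53 on the log2 scale without LPS and 3.42 with LPS. It passed the filter through the osteoclast libraries alone, so this difference is partly built into the filter and no p-value is given for it. Its LPS differences were not called in limma (-0.04 in macrophages, adjusted p 0.682, and -0.15 in osteoclasts, adjusted p 0.247). The FPKM of Pirb per FPKM of Pira2 was 36.7 ± 5.44 (SD, n = 3) in untreated macrophages, 93.8 ± 15.2 with LPS, 2.87 ± 0.0993 in untreated osteoclasts and 3.09 ± 0.0487 with LPS. Pirb was the more abundant of the pair in all 12 libraries. Lilr4b, which codes for gp49A, measured 51.9, 45.7 and 44.9 FPKM in untreated macrophages, 156, 128 and 120 with LPS, 12.9, 9.90 and 9.95 in untreated osteoclasts and 15.4, 11.5 and 16.3 with LPS. It rose with LPS in macrophages (log2 difference 1.48, adjusted p 9.59e-07 in limma) and was lower in untreated osteoclasts (-2.03, adjusted p 3.21e-08). Lilr4b per Lilrb4a was 2.18 ± 0.111, 4.22 ± 0.666, 1.5 ± 0.0413 and 2.16 ± 0.311 in the same order of groups. Lilr4b was the more abundant of the pair in all 12 libraries. Since the members of each pair share sequence, part of one gene's reads may stem from the other. Exons of Lilr4b, like those of Lilrb4a, also overlap Gm49339 on the same strand. How much this bears on the ratios was not tested.

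**Figure D2:**
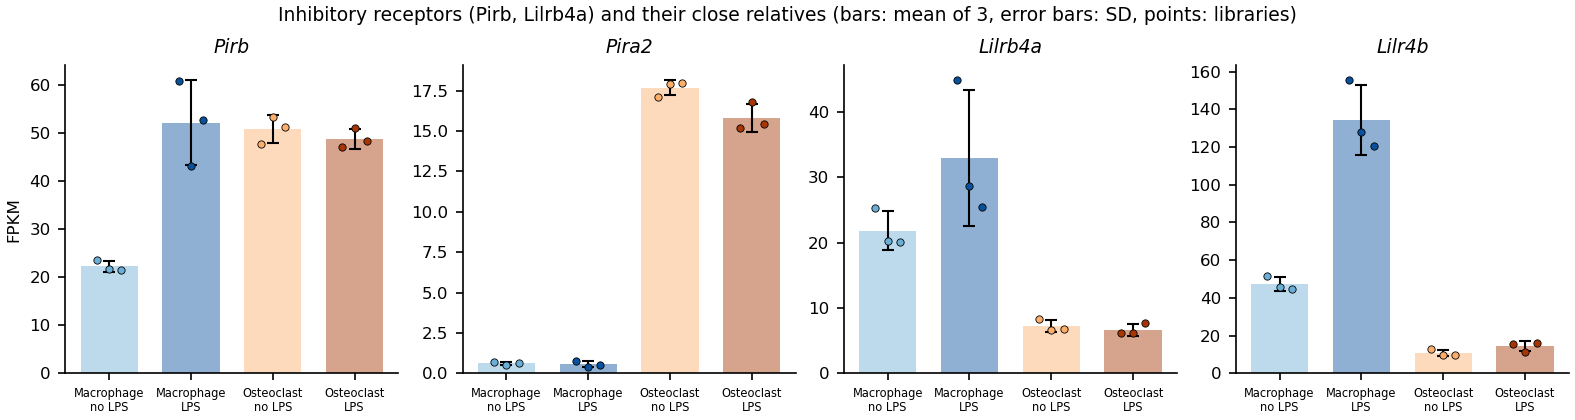
FPKM of Pirb and Lilrb4a beside Pira2 and Lilr4b in the 4 groups (linear axes from 0, a different range in each panel); bars are means of 3 libraries, error bars SD and points libraries. Pira2 is under 1 FPKM in all macrophage libraries and above 15 in all osteoclast libraries, while Lilr4b is highest in macrophages with LPS, at 120 to 156 FPKM.

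Siglece, whose product dampens signalling after binding sialic acids, had the largest ratio between the cell types of the 5 inhibitory receptors among the 8 genes. It measured 2.33, 2.78 and 2.50 FPKM in untreated macrophages and 4.45, 4.71 and 5.20 with LPS. Osteoclasts gave 0.322, 0.128 and 0.223 FPKM without LPS and 0.765, 0.456 and 0.385 with LPS, on 4 to 28 reads a library. The 4 groups do not overlap. The mean with LPS was 1.88-fold higher in macrophages (log2 difference 0.71, SE 0.10) and 2.39-fold higher in osteoclasts (0.32, SE 0.10). Untreated osteoclasts were 11.3-fold and osteoclasts with LPS 8.94-fold below the matching macrophages. The call in osteoclasts was lost with no filter, quantile normalization (0.27) and voom (1.23), and in 10 of the 12 fits that left out 1 library, with a log2 difference between 0.22 and 0.36 in those fits. With TPM the difference in macrophages was 0.24 and was not called.

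Among the activating receptors, Cd300lb held the largest LPS difference of the 8 genes. Cd300lb, which signals through DAP12, measured 102, 102 and 91.3 FPKM in untreated macrophages (5928 to 6968 reads) and 2.77, 4.39 and 3.24 FPKM with LPS (103 to 191 reads). Osteoclasts gave 9.73, 7.95 and 8.90 FPKM without and 3.00, 3.09 and 2.89 with LPS. After LPS, macrophages and osteoclasts overlap at 2.77 to 4.39 FPKM, below all untreated libraries of either cell type. The mean with LPS was 28.3-fold lower in macrophages (log2 difference -4.49, SE 0.11) and 2.96-fold lower in osteoclasts (-1.30, SE 0.11). Untreated osteoclasts were 11.1-fold below untreated macrophages (-3.33), but with LPS the log2 difference was -0.15 (SE 0.11) and was not called. Without the first library of macrophages with LPS that last value was -0.26 and was called lower. Cd300ld, which pairs with the Fc receptor gamma chain, had overlapping levels with and without LPS in osteoclasts and lower levels with LPS in macrophages. It measured 26.4, 25.3 and 25.7 FPKM in untreated macrophages, 19.9, 19.4 and 22.0 with LPS, 4.98, 5.28 and 5.01 in untreated osteoclasts and 5.08, 3.65 and 4.27 with LPS. The macrophage groups do not overlap each other (1.27-fold lower with LPS, log2 difference -0.33, SE 0.08, and -0.98 with TPM), and the osteoclast groups do overlap. The difference in osteoclasts was not called (-0.20, SE 0.08), but was called at -0.30 without their first library with LPS, -0.29 with TPM and -0.23 with quantile normalization. Untreated osteoclasts were 5.08-fold and osteoclasts with LPS 4.71-fold below the matching macrophages.

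Trem1, which amplifies inflammatory signalling through DAP12, was low in all groups. It measured 1.35, 1.33 and 1.78 FPKM in untreated macrophages (94, 94 and 119 reads) and 2.38, 1.57 and 1.38 FPKM with LPS (91, 70 and 58 reads). Osteoclasts gave 0.0543, 0.0988 and 0.0589 FPKM without LPS, on 3, 5 and 3 reads, and 0.169, 0.108 and 0.128 with LPS, on 10, 5 and 7 reads. Every macrophage library lies above every osteoclast library, and both macrophage groups overlap. The LPS difference was not called in macrophages (log2 difference 0.14, SE 0.12) or in osteoclasts (0.08, SE 0.12). Untreated osteoclasts were 21.1-fold and osteoclasts with LPS 13.1-fold below the matching macrophages, ratios that rest on few reads. Neutrophils also express Trem1. The neutrophil list (10 genes) summed to 5.70 to 16.4 FPKM in macrophage and 0.305 to 1.88 FPKM in osteoclast libraries, with 3 of the 10 at a mean of 1 FPKM or more in each macrophage group and 0 in each osteoclast group. Ly6g and Elane were listed at 0 in all 3 libraries of untreated macrophages. Whether neutrophils contribute to the Trem1 level was not tested.

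The CD300 cluster on chromosome 11 spans 244 kb (114890041 to 115133992) and holds 11 genes, 4 of them described above, with Cd300lg farther away on the same chromosome. Levels differed widely between neighbours. In untreated macrophages Cd300c2 (99.4 ± 6.97 FPKM), an activating member, and Cd300lb (98.2 ± 6.03) stood at about the same level, followed by Cd300ld (25.8 ± 0.564) and Cd300a (11.6 ± 0.700). Cd300ld3 measured 3.19 ± 0.493 FPKM, and Cd300c, Cd300ld2, Cd300ld4, Cd300ld5 and Cd300e were each under 1 FPKM. The 12 CD300 genes summed to 242 ± 14.3 FPKM in untreated macrophages, 111 ± 2.47 with LPS, 34.8 ± 1.07 in untreated osteoclasts and 22.9 ± 4.32 with LPS. Cd300lb made up 40.7% of that sum in untreated macrophages and 3.14% with LPS, and 25.5% and 13.5% in osteoclasts without and with LPS. Cd300c2 made up 41.1%, 66.6%, 48.9% and 55.2% in the same order. Its own level fell with LPS in macrophages by 0.43 on the log2 scale (adjusted p 0.0169 in limma) and differed by -0.42 in osteoclasts (adjusted p 0.0611). Cd300lb per Cd300c2 was 0.988 ± 0.0285 in untreated macrophages and 0.0471 ± 0.0117 with LPS. Cd300c2 was lower in untreated osteoclasts by 2.48 (adjusted p 6.25e-09). The log2 difference of Cd300ld3 there was -1.87, given without a p-value because this gene passed the filter through the macrophage libraries alone. Sums and ratios were chosen after the values were seen.

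**Figure D3:**
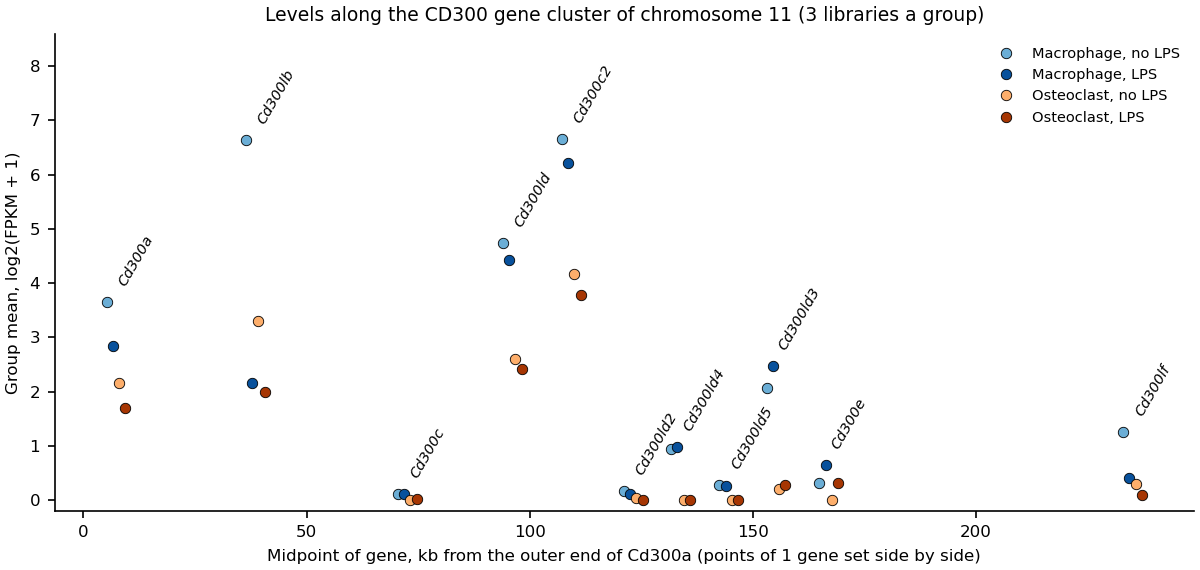
Group means on the log2(FPKM + 1) scale (vertical) of the 11 genes of the CD300 cluster by distance in kb from the outer end of Cd300a (horizontal; the 4 points of a gene are set side by side); each point is the mean of 3 libraries. Cd300lb drops from 98.2 to 3.47 FPKM with LPS in macrophages while Cd300c2, its most abundant neighbour, is at 73.7 FPKM.

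The log2 difference in osteoclasts minus that in macrophages was 3.19 (SE 0.16) for Cd300lb, with a lower level after LPS in both cell types, and -1.24 (SE 0.14) for Pirb, with a higher level after LPS in macrophages and no called difference in osteoclasts. It was 0.66 (SE 0.16) for Cd300lf, 0.36 (SE 0.12) for Cd300a, -0.64 (SE 0.25) for Lilrb4a and -0.39 (SE 0.14) for Siglece. With TPM the value was 3.81 for Cd300lb, -0.69 for Pirb, 1.39 for Cd300lf, 0.88 for Cd300a and -0.089 for Lilrb4a, where the median of all genes stood at 0.51. With quantile normalization that of Lilrb4a was -0.23, and it was called under neither scaling. Among 12 fits that left out 1 library, the call was lost in 8 for Lilrb4a, in 8 for Siglece and in 5 for Cd300a, and Lilrb4a stood at -0.40 without the first macrophage library with LPS. With a pseudocount of 0.1 those of Cd300lf, Cd300a, Lilrb4a and Siglece were 1.00, 0.29, -0.67 and 0.081, and none of them was called. For Siglece the sign itself turns, since its ratio of means with LPS was larger in osteoclasts (2.39) than in macrophages (1.88). Cd300ld (0.13, SE 0.12) and Trem1 (-0.06, SE 0.17) were not called, but Cd300ld was called at 0.68 with TPM and 0.54 with quantile normalization. With 1 library left out, Cd300ld ranged from 0.03 to 0.22, and Trem1 from -0.16 to 0.09, where its sign turns. The LPS-response markers reached 8609 to 8804 FPKM in macrophages and 314 to 530 in osteoclasts with LPS, and their part in the differences between receptors was not tested.

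**Figure D4:**
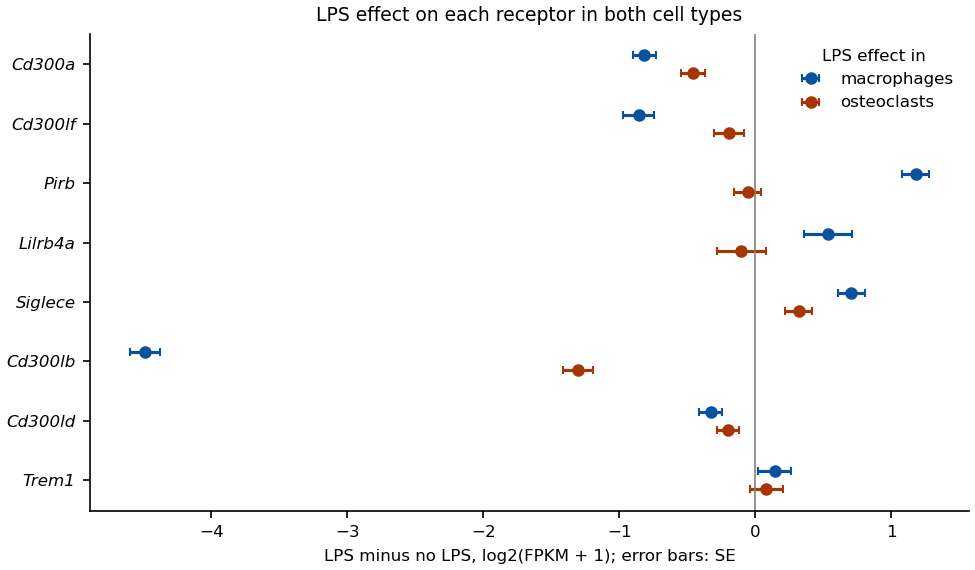
Difference between libraries with and without LPS on the log2(FPKM + 1) scale (horizontal), with SE bars from the limma fit over 12 libraries, for the 8 receptor genes in macrophages and osteoclasts. Cd300lb lies at -4.49 in macrophages and -1.30 in osteoclasts, and Pirb at 1.18 and -0.05.

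Over the 12 libraries the 8 genes followed a few patterns. These are correlations of log2(FPKM + 1), given as a description: the libraries form 4 groups of 3 and share scaling, so they are not 12 independent points. Cd300lb and Cd300lf moved together (Pearson r 0.93) and Pirb ran opposite to both (-0.94 and -0.93). Lilrb4a, Trem1 and Siglece moved together (0.94 to 0.97), as did Cd300ld with Trem1 (0.95). The genes of the whole table most like each member were Lhfpl2 and Cxcr4 for Cd300lb (r 0.997 and 0.994), Sash3 for Cd300a (0.994), Pygb for Cd300ld (0.998) and Haspin for Cd300lf (0.987). They were Nub1 for Pirb (0.982), Zbtb20 for Lilrb4a (0.994), Ythdf2 for Trem1 (0.994) and Fcer1g for Siglece (0.996). Cxcr4, the chemokine receptor for CXCL12, had means of 31.8, 1.26, 3.96 and 1.10 FPKM in the order of groups used above. Nub1 had means of 10.6, 29.4, 29.2 and 29.2 FPKM.

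Other genes of the same receptor system were taken from 9 lists of 73 symbols, of which 66 matched and 47 passed the filter. The lists follow gene families and pathways and were drawn up with earlier results of these libraries known, so the p-values of their genes, here and above, come from the fit over all genes and are not independent evidence. In limma, 22 of the 47 rose and 11 fell with LPS in macrophages, where 36.8% and 33.1% of all genes tested did. In osteoclasts 9 rose and 5 fell (11.1% and 6.59% of all genes). For untreated osteoclasts against untreated macrophages the calls were 9 higher and 33 lower (38.8% and 39.0%), and 10 and 34 with LPS (40.9% and 43.0%). Of the 47, 7 were under 1 FPKM in all osteoclast libraries and 3 in all macrophage libraries, so the filter partly fixed their direction in the comparison of cell types, and those counts support nothing. The median log2 difference of the 47 was 0.22 for LPS in macrophages and -0.77 for untreated osteoclasts against macrophages, beside 0.02 and 0.00 over all genes. The LPS splits depend on the scaling. With TPM in place of FPKM, 10 rose and 24 fell in macrophages and 6 rose and 7 fell in osteoclasts. After quantile normalization the counts were 15 and 18, and 4 and 8. The difference between the LPS effects was called higher for 6 and lower for 16 (26.6% and 30.0% of all genes), but 19 and 10 with TPM and 16 and 9 with quantile normalization. The genes named next as changed with LPS kept their direction under every scaling tried, unless a flip is stated.

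Of the adaptors, Tyrobp (DAP12), which serves Cd300lb and Trem1, was level: 792 ± 20.1, 862 ± 13.0, 787 ± 26.5 and 880 ± 93.9 FPKM in untreated macrophages, macrophages with LPS, untreated osteoclasts and osteoclasts with LPS, with adjusted p between 0.104 and 0.918 in the 5 comparisons. Under TPM and quantile normalization it was lower with LPS in macrophages (-0.52 and -1.09). Fcer1g, the partner of Cd300ld and the PIR-A receptors, was lower in untreated osteoclasts by 1.80 (adjusted p 5.43e-11). Its LPS difference in macrophages was 0.67 (adjusted p 7.95e-07), but -0.60 under quantile normalization. Syk, the kinase downstream of both, rose with LPS in macrophages by 1.20 (adjusted p 5.16e-10) and was higher in untreated osteoclasts by 1.19 (adjusted p 3.66e-10). Card9, an adaptor downstream of Syk, fell with LPS by 0.44 in macrophages (adjusted p 2.10e-05) and by 0.26 in osteoclasts (adjusted p 0.00812). Hcst (DAP10) was not called, with adjusted p between 0.0605 and 0.891 in the 5 comparisons. Of the inhibitory effectors, Inpp5d (SHIP1) measured 69.3 ± 0.709 FPKM in untreated macrophages, 19.7 ± 1.22 with LPS, 31.1 ± 0.689 in untreated osteoclasts and 26.0 ± 2.22 with LPS. It fell with LPS by 1.77 in macrophages (adjusted p 6.61e-11) and by 0.25 in osteoclasts (adjusted p 0.0109), and these effects differed (1.52, adjusted p 1.91e-08). Ptpn6 (SHP-1) fell by 0.38 in macrophages (adjusted p 8.44e-07), and was not called in osteoclasts (0.01, adjusted p 0.919). The inhibitory effectors did not move as a set: of the 5 tested, 2 were called higher and 3 lower with LPS in macrophages. Those called higher were Dok1, from a mean of 27.7 to 45.02 FPKM, and Ptpn11 (SHP-2), from 15.02 to 20.03 FPKM. With TPM the log2 difference of Ptpn11 was -0.23. Exons of Ptpn6, Card9, Fcgr2b and Fn1 overlap genes on the other strand (Gm20531, Gm13562, Gm38204 and Apol7d). So do those of Milr1 (Polg2), Cd72 (Tesk1) and Pilra (Zcwpw1). Whether the counting used strand is not given in the sources used here.

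Of the other receptors, 7 of the 10 other inhibitory receptors tested were called lower and 3 higher in untreated osteoclasts (39.0% and 38.8% of all genes). Of the other activating ones, 6 of 7 were called lower, but 3 of the 6 were under 1 FPKM in all osteoclast libraries and entered the fit through macrophages alone, so that count supports nothing. The inhibitory receptor gene Sirpa, for the receptor of CD47, was lower in untreated osteoclasts by 0.78 (adjusted p 1.59e-09). The DAP12-linked lectin gene Clec5a was lower there by 1.34 (adjusted p 3.66e-05), and rose with LPS by 0.71 in macrophages (adjusted p 0.00543, a call lost with TPM). Its LPS difference in osteoclasts was 0.66 (adjusted p 0.034), but the groups overlap. Clec5a measured 7.73, 3.23 and 5.78 FPKM in osteoclasts with LPS and 3.39, 2.77 and 2.85 without. The second library with LPS was lowest, as for Adgre1, and its part in this difference was not tested. The inhibitory Fc receptor gene Fcgr2b was lower in untreated osteoclasts by 4.17 (adjusted p 9.53e-11). It rose with LPS by 1.62 in macrophages (adjusted p 1.00e-06) and 1.11 in osteoclasts (adjusted p 2.62e-04). Trem2, a DAP12-linked receptor encoded near Trem1 on chromosome 17, was lower in untreated osteoclasts by 3.49 (adjusted p 2.82e-10), from 125 ± 1.28 to 10.2 ± 0.435 FPKM. The inhibitory lectin gene Clec12a was higher in untreated osteoclasts by 1.14 (adjusted p 3.37e-10). Clec4a2, of the same list, measured 18.3 ± 1.26 FPKM in untreated macrophages and 97.3 ± 3.59 in untreated osteoclasts. Oscar, a collagen receptor that uses the Fc receptor gamma chain, measured 0.0240 ± 0.0243 FPKM in untreated macrophages and 171 ± 4.95 in untreated osteoclasts, and Siglec15, which uses DAP12, 0.429 ± 0.181 and 156 ± 11.1 FPKM. Both passed the filter through the osteoclast libraries alone, so no p-value is given for this difference. Of the reported ligands, 7 of the 8 tested rose with LPS in macrophages and 1 fell (36.8% and 33.1% of all genes), though the values of Apoe and Fn1 were negative with TPM and quantile normalization, and that of H2-D1 with quantile normalization. Among them were B2m (1.09, adjusted p 2.60e-08) and H2-K1 (1.24, adjusted p 3.66e-10), components of the MHC class I ligand of PIR-B. The gene that fell was Hmgb1 (-0.16, adjusted p 0.0431), whose product has been reported as a ligand of TREM1, and its exons overlap Mm2pr and Uspl1.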

How the data were processed

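Per the labels' protocols, RNA was made into 12 libraries with the NEBNext Ultra kit, and the submitters' processing notes name fastp, STAR, featureCounts, DESeq2 and mm10 without versions. The authors deposited FPKM for 54532 Ensembl genes, and 54409 were given a symbol from GENCODE M21. FPKM steps gave whole reads for 100% of the 25854 genes above 0 (tolerance 0.02), and 15651955 to 20281567 reads a library. The steps match scaling by median-of-ratios size factors, which is inferred from the values. Reads are not independent molecules, so read numbers give counting error only. The 11335 genes that reached 1 FPKM in 3 or more libraries were fitted with limma 3.58.1 in R 4.3.3 on log2(FPKM + 1), with 4 group means, a variance trend and Benjamini-Hochberg adjustment at 0.05, two-sided, and the fit was tested on simulated data. The 8 genes and all lists were chosen with earlier results of these data known. Only relatives whose mean reached 5 FPKM in a group were to be given with values. Levels or main differences are given for some of these only, so the genes named are not a complete account. Likeness was ranked by Pearson r, with the first 1 or 2 genes named, and genes of the CD300 cluster are named for their position. Promoters are from RefSeq (GRCm38.p6). The fit was repeated with TPM, with quantile normalization, with voom on recovered reads, with a pseudocount of 0.1, without the filter, with a minimum mean of 5 FPKM, with a replicate block and without each library in turn. Protein features that were planned are not analysed here.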

Additional observations from a re-analysis of the deposited data

Results flagged for a closer look

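Each result here is an LPS difference in osteoclasts minus that in macrophages on the log2(FPKM + 1) scale that was called in the fit over all genes. For the 8 receptor genes, chosen with these differences known, the values are a description and were 0.36 for Cd300a, 3.19 for Cd300lb, 0.66 for Cd300lf, -1.24 for Pirb, -0.64 for Lilrb4a and -0.39 for Siglece. Among other receptors they were -1.11 for Lilr4b, -0.32 for Siglec1, -0.63 for Cd33, 0.42 for Siglec15, -0.53 for Clec4a2, -0.96 for Clec12a, -0.68 for Milr1 and -0.31 for Cd72. Cd33 passed the filter through macrophages alone and Siglec15 through osteoclasts alone, so nothing is read from their calls. Among adaptors and signalling genes they were -0.42 for Fcer1g, -1.01 for Syk, 0.35 for Vav1, 0.39 for Ptpn6, -0.28 for Ptpn11, 1.52 for Inpp5d, 0.25 for Csk and -0.73 for Dok1. Among reported ligands they were -0.85 for B2m, -0.98 for H2-K1, -0.80 for H2-D1, -2.11 for Cd47 and -0.59 for Cd200.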

How the results depend on the processing

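Rescaling to TPM moved the median of all genes by -0.58 for LPS in macrophages, -0.38 and 0.14 for osteoclasts against macrophages without and with LPS and 0.53 for the difference between LPS effects, and quantile normalization moved it by -0.16 for LPS in macrophages and 0.11 for osteoclasts against macrophages with LPS. Requiring a mean of 5 FPKM left 5 of the 8 receptor genes, so called members were 5 and 3 for osteoclasts against macrophages without and with LPS and their median for LPS in macrophages was -0.33. Called members for the difference between LPS effects were 2 with a pseudocount of 0.1, 3 with no filter, 3 with voom on recovered reads and 3 to 5 with a library left out. The members' median for LPS in macrophages was -0.66 with TPM, -0.35 with quantile normalization and -0.16 to 0.23 with a library left out, where fits without an untreated macrophage library tested 7 members. For osteoclasts against macrophages it was -2.30 with a pseudocount of 0.1, -2.27 with TPM and -2.56 with voom without LPS, and -1.82, -1.56 and -2.20 with LPS. For the difference between LPS effects it was 0.61 with TPM, 0.31 with voom and -0.14 to 0.10 with a library left out. The cause of these shifts was not tested, other than fewer genes or samples.

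Counting values called in the reported fit, the alternative or both, signs turned for 4 values of members: Lilrb4a for LPS in macrophages (-0.088 with TPM) and Siglece for the difference between LPS effects (0.081 with a pseudocount of 0.1, 0.33 with TPM, 0.32 with voom). The LPS call of Lilrb4a in macrophages was also lost with quantile normalization (0.08), and that of Siglece with TPM (0.24). With TPM, members that were called in neither fit turned too: Trem1 for LPS in macrophages (-0.35) and for the difference between LPS effects (0.53), and Pirb for osteoclasts against macrophages with LPS (0.076). By the same count signs turned for 39 values of relatives. With TPM, LPS in macrophages gave Siglec1 -0.45, Cd33 -0.27, Clec4a2 -0.14, Pilra -0.024, Cd72 -0.34, Tyrobp -0.52, Plcg2 -0.58, Ptpn11 -0.23, Apoe -0.35 and Fn1 -0.34. With TPM, the difference between LPS effects gave Siglec1 0.23, Clec4a2 0.023, Lair1 0.53, Cd200r1 0.35, Milr1 0.015, Cd72 0.25, Fcer1g 0.15, Plcg2 0.52, Ptpn11 0.27, Apoe 0.37 and Fn1 0.92. With TPM, Ptpn11 in untreated osteoclasts was -0.36. With quantile normalization, LPS in macrophages gave Siglec1 -0.62, Cd72 -0.15, Tyrobp -1.09, Fcer1g -0.60, Plcg2 -0.46, H2-D1 -0.0089, Apoe -0.89 and Fn1 -0.23. With it, the difference between LPS effects gave Trem2 0.61, Siglec1 0.47, Cd72 0.047, Fcer1g 0.72, Plcg2 0.40, Ptpn11 0.015, Apoe 0.87 and Fn1 0.47, and Dok1 in osteoclasts with LPS was 0.037.

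Same-numbered libraries did not deviate together (correlations of deviations from -0.07 to 0.10), and the reported fit does not pair them. With 3 libraries a group these correlations cannot tell whether such libraries share an origin. With a replicate block, called members were 7, 2, 8, 6 and 5 and called relatives 32, 15, 43, 44 and 23, for LPS in macrophages, LPS in osteoclasts, osteoclasts against macrophages without and with LPS, and the difference between LPS effects. The members lost were Siglece in LPS in osteoclasts (from 3 to 2) and in the difference between LPS effects (from 6 to 5). Reads limit Trem1, Siglece and Cd300lf in osteoclasts, at 3 to 35 reads a library.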
